A study of Mus musculus with 2 samples.

Results

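Triglyceride synthesis and lipid droplet genes were measured in mouse liver by 17 probe sets for 10 genes, out of 45101 probe sets on the array. The genes are Gpam, Agpat2, Lpin1, Lpin2, Mogat1, Dgat1, Dgat2, Plin2, Cidea and Cidec, and a probe set was taken when the platform annotation gives 1 of these as its only symbol. All 10 genes had at least 1 such probe set. Liver RNA of Bglu3 congenic mice, labelled with the strain C57BL/6, was hybridised to 1 Affymetrix array, and liver RNA of C57BL/6 apoE-/- control mice to another. In both groups chow was fed from weaning at 3 weeks, a Western diet followed from an age of 6 weeks and lasted 12 weeks, and the labels name hyperglycemia. Bglu3 is a blood glucose locus on mouse chromosome 1, and congenic mice have such a stretch of donor DNA bred into a recipient strain. The labels give neither the ends of that stretch, nor its donor, nor the apoE genotype of the congenic mice, nor the sex and number of mice behind an array. Mogat1 is the only member on chromosome 1.

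Hepatocytes build triglyceride by adding fatty acids to a glycerol backbone in steps. Gpam attaches the first acyl chain to glycerol 3-phosphate, Agpat2 attaches the next to give phosphatidate, the lipins Lpin1 and Lpin2 remove the phosphate to give diacylglycerol, and Dgat1 or Dgat2 attach the last chain. Mogat1 reaches diacylglycerol by another route, from monoacylglycerol. The product is stored in lipid droplets, which Plin2 coats and whose size the CIDE proteins Cidea and Cidec regulate, and fatty livers are known for more of these droplets.

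The values are 1 linear intensity per probe set and array, as deposited. Each difference is log2(intensity + 5) of the congenic array minus that of the control array, which understates the change of dim probe sets. A probe set was called expressed when it reached the median of its array (19.3 congenic, 19.7 control) on at least 1 array, and a gene is represented by its brightest probe set. There was 1 array per group, so no difference has a replicate check, a test or an SD over animals. The spread among expressed probe sets of the same gene had an SD of 0.34 (log2) over 5189 genes and of 0.26 over the brightest 1297 of them. This measures disagreement among probe sets within this array pair only, and whether they read the same transcripts was not tested. In whole liver, fewer cells of a type and less RNA per cell cannot be told apart. Intensities of different probe sets are not compared with each other as transcript levels.

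Lpin1 was the member that differed most, with about 4-fold less signal in the congenic array, while the other expressed members lay within 1.5-fold by their brightest probe sets. Past 1.5-fold, 1 of 9 expressed members was lower in congenic liver (11.1%) and 0 were higher. Among all 12613 expressed genes, 5.26% were lower and 7.59% higher by that much, and the members' count is Lpin1 alone. At any size, 6 of the 9 were lower and 3 higher, where 43.8% of all expressed genes were lower. The median difference was -0.29 over the 9 members, and -0.28 over the 8 without Lpin1, beside 0.04 over all expressed genes. Cidea, the tenth member, was below the median of both arrays.

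**Figure D1:**
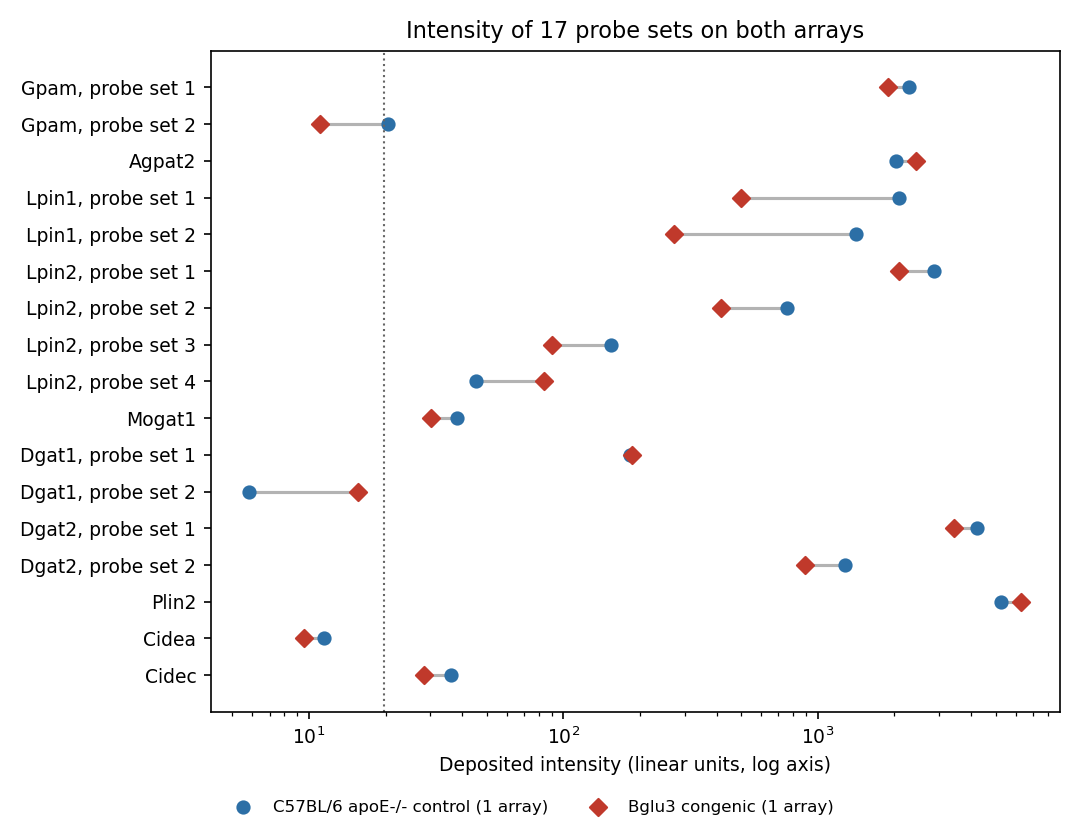
Intensity of each of the 17 probe sets on the congenic array (red diamonds) and the control array (blue circles), on a log axis, numbered from the brightest within a gene. The dotted line is the control array's median of 19.7. Both Lpin1 probe sets show the widest gaps among the bright probe sets.

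The first acylation enzymes pointed in opposite directions by small amounts. Gpam, the mitochondrial glycerol 3-phosphate acyltransferase, had an intensity of 1896 in the congenic array and 2276 in the control array by its brightest probe set. The congenic value was the lower one, with a log2 difference of -0.26. A much dimmer Gpam probe set read 11.1 against 20.4 (log2 difference -0.66) and passed the expression limit on the control array only. Agpat2, the acyltransferase whose loss causes lipodystrophy, had 1 probe set, which read 2438 in the congenic array and 2038 in the control array. Its log2 difference of 0.26 was in the other direction and also below the spread of 0.34 among probe sets of a gene.

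The phosphatidate phosphatase step held the widest difference. Lpin1 encodes lipin 1, an enzyme that also acts as a transcriptional coactivator of fatty acid oxidation genes in liver. Its brightest probe set read 498 in the congenic array and 2078 in the control array, a ratio of 0.24 and a log2 difference of -2.05. Its other probe set read 272 against 1409, a ratio of 0.193 and a log2 difference of -2.35. Both lay well above the medians of both arrays, so the size depended little on the pseudocount. Among all 12613 expressed genes, Lpin1 had the 14th lowest difference, where 1.45% of genes were lower by 2-fold or more. Among the 2523 brightest of these genes, those with a mean intensity of 514 or more, it had the lowest.

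Lpin2 encodes lipin 2, a phosphatase of the same family that is abundant in liver, and it was covered by 4 probe sets. The brightest read 2079.6 in the congenic array and 2862 in the control array, a log2 difference of -0.46. The next read 416 against 757 (-0.86) and the third 90.3 against 154 (-0.73). The dimmest went the other way, with 83.8 in the congenic array against 45.2 in the control array (0.82). The probe sets of Lpin2 thus ranged from -0.86 to 0.82, and 3 of 4 were lower. By the median of the 4 probe sets Lpin2 differed by -0.60, which passes 1.5-fold, so that 2 members rather than 1 would be counted as lower. By the brightest probe sets, the difference of Lpin1 lay 1.59 below that of Lpin2, beyond the spread of 0.34 among probe sets of a gene. Lpin3, the other lipin, read 12.5 against 8.6 and was not expressed by the limit used.

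**Figure D2:**
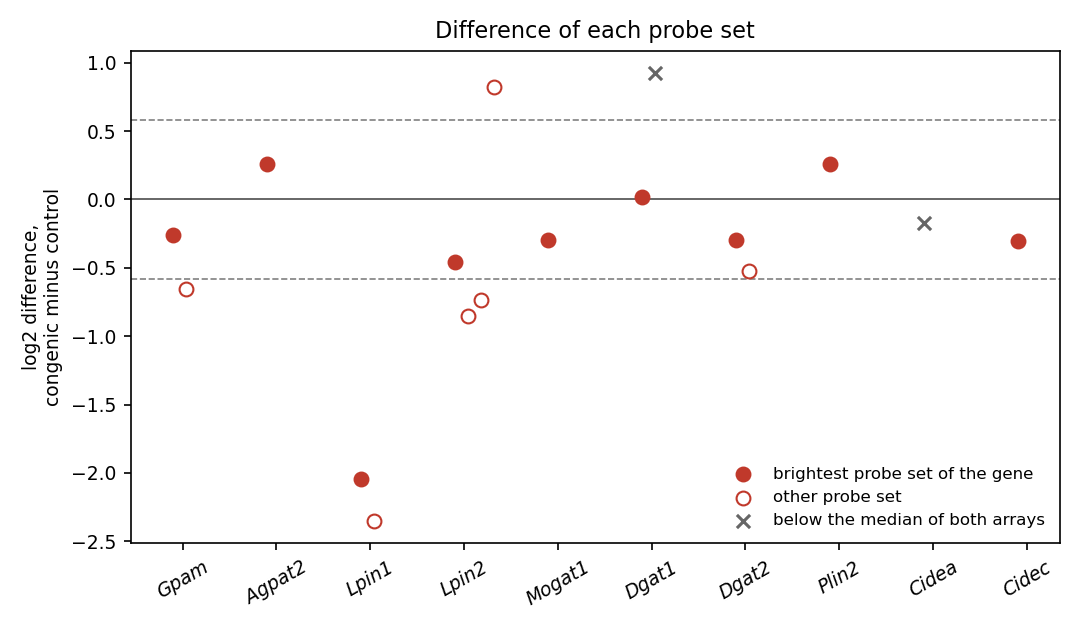
Log2 difference (congenic minus control, pseudocount of 5) of every probe set by gene, filled for the brightest, open for others and crossed where below the median of both arrays. Dashed lines mark 1.5-fold. Lpin1 lies at -2.05 and -2.35, apart from all other probe sets, and the 4 of Lpin2 spread from -0.86 to 0.82.

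The start regions of both lipin genes are shown because their main probe sets were lower together. The sequences are from RefSeq on GRCm38.p6, and each covers the 250 bases before an annotated transcription start, 5′ to 3′ on the gene's strand. The Lpin1 window is chr12:16610967-16611216 (minus strand), where capitals mark AGGTCA, the core motif of nuclear receptor response elements. The Lpin2 window is chr17:71183282-71183531 (plus strand), the most upstream of 3 in the table, where capitals mark CACGTG, the E-box bound by clock and other basic helix-loop-helix factors. Which of the annotated starts is used in these livers was not measured.

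Lpin1: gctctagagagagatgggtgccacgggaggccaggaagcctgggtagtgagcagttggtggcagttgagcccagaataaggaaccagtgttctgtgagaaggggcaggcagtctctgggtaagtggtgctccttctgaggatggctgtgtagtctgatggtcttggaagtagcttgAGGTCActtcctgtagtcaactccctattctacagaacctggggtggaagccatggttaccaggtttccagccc

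Lpin2: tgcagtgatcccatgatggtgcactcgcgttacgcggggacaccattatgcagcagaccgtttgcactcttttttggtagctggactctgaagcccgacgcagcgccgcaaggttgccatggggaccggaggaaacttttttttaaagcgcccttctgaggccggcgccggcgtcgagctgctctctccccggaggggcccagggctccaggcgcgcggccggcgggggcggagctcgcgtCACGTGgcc

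Exact matches to a few short motifs were counted on both strands in the 11 windows of the 7 members in the table, which are all but Dgat1, Dgat2 and Cidea. CACGTG stood in 1 of the 11, the Lpin2 window above, and in 6.02% of all 32851 windows of that length. AGGTCA stood in 3 windows, 1 each of Lpin1, Gpam and Plin2, and in 14.0% of all windows. In Lpin1 it began 74 bases before the start. CCAAT stood in 3 windows, 1 each of Gpam, Plin2 and Lpin2 (the most downstream of its 3), beside 33.9% of all windows. TCACNCCAC, a sterol response element, and TATAAA were in 0 of the 11, beside 1.05% and 12.4% of all windows. No 2 of these motifs overlapped in the printed windows, and a match is a description of letters only.

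The acyltransferases that make or use diacylglycerol differed little by their brightest probe sets. Mogat1, the monoacylglycerol acyltransferase, was dim at 30.1 on the congenic array against 38.1 on the control array, with a log2 difference of -0.30 from 1 probe set. Dgat1, which also esterifies dietary fat in the intestine, read 186 against 184 by its brightest probe set (log2 difference 0.02, and -0.05 after quantile normalization or -0.03 with a loess trend removed). That probe set has a name ending in _s_at, a class that can bind related transcripts. Its other probe set read 15.6 against 5.84, a log2 difference of 0.92, but stayed below the median of both arrays. Dgat2, the acyltransferase tied to newly made fatty acids in liver, read 3435 in the congenic array and 4211 in the control array, a log2 difference of -0.29. Its other probe set read 889 against 1279.8 (-0.52). Both Dgat2 probe sets were thus lower in the congenic array, and neither passed 1.5-fold.

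Among droplet proteins, Plin2 was slightly higher in the congenic array, and Cidea and Cidec were dim and slightly lower. Plin2, the perilipin that coats hepatocyte droplets and whose protein is kept stable by the lipid it covers, had 1 probe set. It read 6297 in the congenic array and 5247 in the control array, a log2 difference of 0.26. Cidec, which promotes droplet fusion, read 28.4 against 36.3 (log2 difference -0.31). Cidea, a relative of Cidec that is abundant in brown fat, read 9.6 against 11.5 (-0.17), below the median of both arrays. Cideb, the family member of hepatocytes that acts on lipoprotein lipidation, read 2144 against 2017 (0.09). None of these probe sets passed 1.5-fold.

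Markers of other cells were read beside the droplet genes, since macrophages, stellate cells and adipocytes are known to store lipid too. Of 8 hepatocyte markers, including Alb and Hnf4a, 0 passed 1.5-fold by the brightest probe set. Their summed intensity was 83918 against 80038 (congenic against control, as in the sums that follow). That sum includes the highest value of each array, Fgb at 14440 in the congenic array and Apoa1 at 13395 in the control array. Whether intensities this high still follow RNA amount was not tested. Hnf4a was lower on all 4 of its probe sets (-0.59 to -0.26), the lowest past 1.5-fold. Of 9 expressed Kupffer cell and macrophage markers, 5 were higher by 1.5-fold or more and 0 lower, with a sum over all 10 of 25019.5 against 17364 and Itgam below the medians. For these and the marker counts that follow, the shares over all expressed genes were 7.59% higher and 5.26% lower. Among 6 lipid-laden macrophage markers 0 were higher by 1.5-fold and Gpnmb was lower (279 against 649), with a sum of 3091 against 2882. At any size 4 of them lay above 0 and 2 below, with a median of 0.26. Of 7 neutrophil markers 6 were higher, with a sum of 3963 against 1249. Camp (151 against 6.35), Ltf (63.2 against 9.1) and Mpo (81.2 against 9.28) passed the expression limit on the congenic array only. That count is therefore partly set by the limit. Of 5 stellate cell markers 2 were higher and 0 lower (1032 against 925). The 2 were Col1a1, dim at 56.2 against 23.2, and Pdgfrb (0.67, with another expressed probe set at -0.54). Lrat lay at 0.36, and Reln and Des at -0.13 and -0.16. The adipocyte markers Lep (1.39 against 1), Aqp7 (1.02 against 3.5) and Ucp1 (8.07 against 2.66) were far below the medians. Retn was below them on both arrays (5.17 against 17.7, a log2 difference of -1.16), and Adipoq lay near them (24.1 against 21.3). The sum of the 6 measured was 1166 against 984, nearly all of it from Fabp4 alone (1127 against 938). The part of any of these cells in the values of Plin2, Agpat2 or the CIDE genes was not tested.

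**Figure D3:**
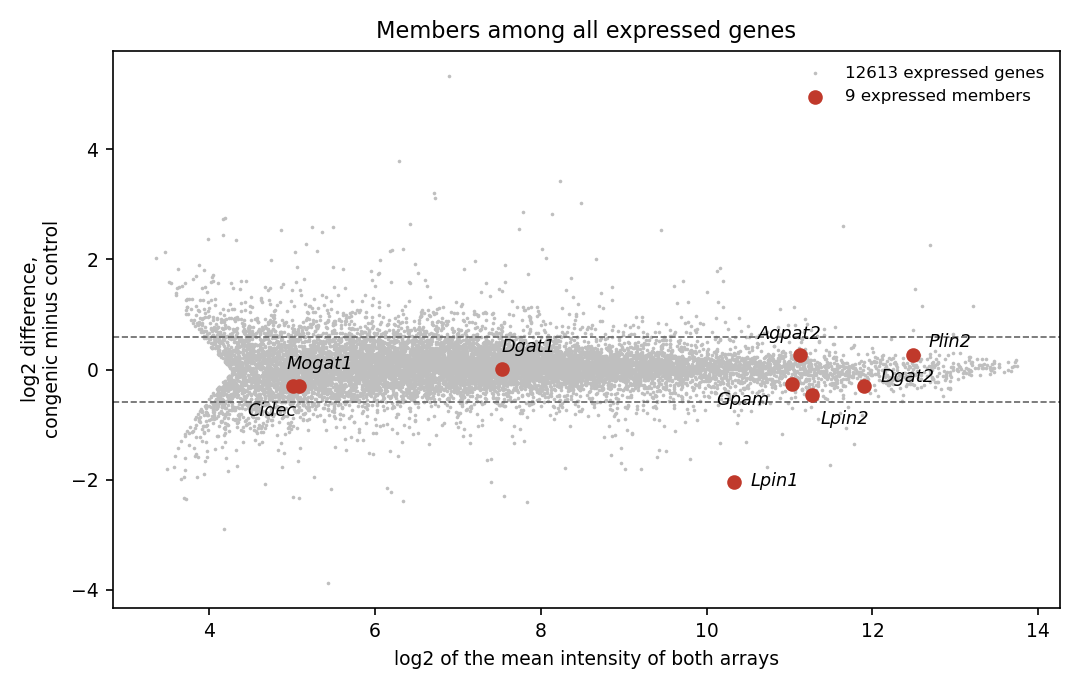
Log2 difference (congenic minus control) against the log2 mean intensity of both arrays for 12613 expressed genes (grey) and the 9 expressed members (red). Dashed lines mark 1.5-fold. Lpin1 lies below the other bright genes, and the other 8 members lie between -0.46 and 0.26.

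Ordered by difference, the expressed members ran from Lpin1 (-2.05) through Lpin2 (-0.46), Cidec (-0.31), Mogat1 (-0.30), Dgat2 (-0.29), Gpam (-0.26), Dgat1 (0.02) and Agpat2 (0.26) to Plin2 (0.26). Lpin1 stood 1.59 below Lpin2. Every other neighbouring pair in this order differed by at most 0.28 (Gpam and Dgat1), within the spread of 0.34 among probe sets of a gene, so neighbours above Lpin1 are not resolved from each other. The ends of that stretch, Lpin2 and Plin2, lay further apart than this spread. Yet the 4 probe sets of Lpin2 alone ran from -0.86 to 0.82, a range that holds the 0.26 of Plin2. The order of these 2 genes is therefore not settled either. There were 6 members among the 2523 brightest expressed genes (Gpam, Agpat2, Lpin1, Lpin2, Dgat2 and Plin2), and 1 of these was lower by 1.5-fold (16.7%). Of those 2523 genes, 2.5% were lower and 3.29% higher by that much. Among them Lpin2 had the 108th lowest difference and Dgat2 the 243rd, while Plin2 had the 302nd highest.

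Counted by probe set, 5 of the 15 expressed ones were lower by 1.5-fold or more (33.3%) and 1 was higher (6.67%), beside 6.04% and 7.22% of all 20973 expressed probe sets with 1 symbol. The 5 came from 3 genes, 2 each from Lpin1 and Lpin2 and 1 from Gpam, and probe sets of a gene are not independent. The Gpam probe set passed the expression limit on the control array only (11.1 against 20.4). Its place in the count is therefore partly set by that limit. All expressed probe sets lay on the same side of 0 in 3 of the 4 members that had several (Gpam, Lpin1 and Dgat2, but not Lpin2). The same was so for 52.4% of the 5189 genes with several expressed probe sets.

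Few of the other genes of the pathway passed 1.5-fold. In 4 lists of other synthesis, droplet, hydrolysis and very low density lipoprotein (VLDL) assembly genes, 2 of 47 expressed genes were higher and 2 lower by 1.5-fold or more (4.26% each). Among all expressed genes, 7.59% were higher and 5.26% lower by that much. Among 17 other glycerolipid synthesis genes, with a median of -0.10, 0 were higher and 1 was lower. That one was Cds1, which turns phosphatidate towards phosphatidylinositol, at 10.6 against 22.8 (log2 difference -0.83), with another, unexpressed probe set at 0.64. Cds1 passed the expression limit on the control array only. Its place in this count, and among the 2 lower of 47, is therefore partly set by that limit. Agpat1, the paralog of Agpat2, was next lowest at -0.29. Gpat2, a testis-rich relative of Gpam, was highest at 36.2 against 22.5 (0.58, just inside 1.5-fold), followed by Acsl3, an acyl-CoA synthetase of droplets on chromosome 1, at 0.52 with probe sets from -1.32 to 0.52. The microsomal relatives of Gpam, Gpat3 and Gpat4, differed by 0.26 and -0.19. Mogat2, the intestinal partner of Mogat1, was near the lowest values at 3.12 against 2.55.

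Of 14 other droplet genes, with a median of -0.03, 0 were higher and 1 was lower by 1.5-fold. That one was Fitm1, a fat storage-inducing protein known mainly from muscle, at 127 against 241 (log2 difference -0.90), while its relative Fitm2 differed by 0.16. Aup1, a droplet protein of sterol and protein turnover, was next lowest at -0.29. The perilipins other than Plin2 stayed close to 0, with Plin4 at 0.23, Plin3 at 0.02 and Plin5, which links droplets to mitochondria, at -0.06.

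Of 10 expressed triglyceride hydrolysis genes, 2 were higher by 1.5-fold and 0 lower, beside 7.59% and 5.26% of all expressed genes. At any size 7 of the 10 lay below 0, where 43.8% of all expressed genes did, and the median was -0.24. G0s2, a protein encoded on chromosome 1 that inhibits adipose triglyceride lipase, read 2586 in the congenic array and 1204 in the control array, a log2 difference of 1.10 from its only probe set. Pnpla2, which encodes that lipase and was named after its values were seen, read 609.7 against 752 (-0.30), with another probe set at 0.56. Lipe, the hormone-sensitive lipase, was dim at 49.4 against 30.1 (0.63). The lowest were Ces1d and Ces1f, carboxylesterases that act on hepatic triglyceride, at -0.52 and -0.45. Probe sets of this clustered esterase family can bind transcripts of close relatives, so its single values are uncertain. By their brightest probe sets, all 6 VLDL assembly genes lay within 1.5-fold with a median of -0.02. They ran from Sar1b (-0.27) and P4hb (-0.11) at the lower end to Surf4 (0.04) and Tm6sf2 (0.08) at the upper. Apob lay at -0.04 by its brightest probe set, but another expressed one, at 0.64, passed 1.5-fold.

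**Figure D4:**
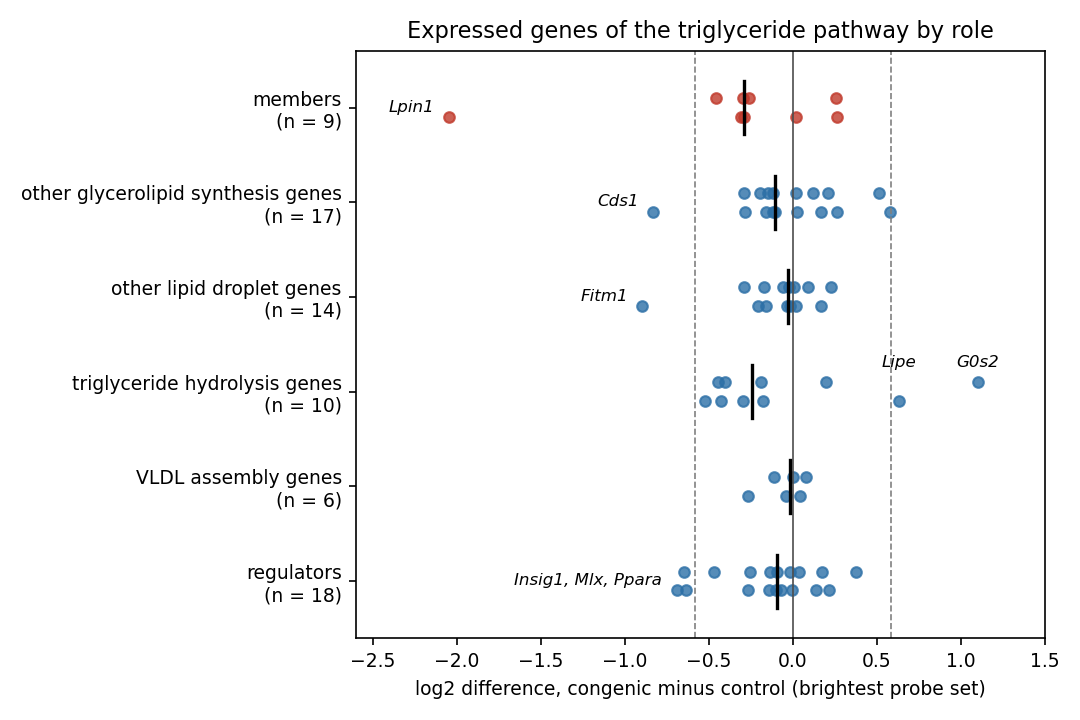
Log2 difference (congenic minus control) of each expressed gene by list, as points, with the list's median as a black bar and 1.5-fold as dashed lines; genes past 1.5-fold are named. Of the 6 lists plotted, Lpin1 is the lowest gene and G0s2, at 1.10, the highest.

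Regulators known to act on these genes were mostly lower by small amounts. Of 18 expressed regulators, 3 were lower by 1.5-fold and 0 higher, with a median of -0.10 and 13 below 0. Among all expressed genes, 5.26% were lower and 7.59% higher by that much, and 43.8% lay below 0. The regulators were listed with earlier results of these data known. The 3 were Insig1, which holds back sterol-sensing transcription factors, at 514 against 833 (log2 difference -0.69), Mlx, the partner of the glucose-sensing factor ChREBP, at 143 against 227 (-0.65, with another probe set at -0.06), and Ppara, the fatty acid receptor, at 882 against 1373 (-0.63). Ppargc1b and Usf2 were highest at 0.38 and 0.21. Pparg, the receptor known to induce Cidea, Cidec, Plin2 and Mogat1 in fatty liver, read 218 against 229 (-0.07).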

How the data were processed

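Liver RNA (8 µg of total RNA per labelling, per the labels) was measured on 1 array per group. The authors deposited linear intensities, a single value for every probe set on either array. The labels name neither their summarization nor their scaling. The log2 medians of the arrays differed by -0.03, so the intensities were used without rescaling.

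Of 45101 probe sets, 34945 had 1 symbol in the platform annotation, 932 had several, 9160 had none and 64 were controls. Symbols were updated through gene IDs to GRCm38.p6, where 34737 matched. Computations used Python 3.11.15, numpy 2.4.6 and pandas 2.3.3. The pseudocount of 5 rounds the 20th percentile of the table (4.73). Counts use 1.5-fold, and there is no test.

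The members and lists were chosen with earlier results of these data known. Named genes are all members, their paralogs, Pparg, and the 2 highest and 2 lowest expressed genes of each pathway list. Pnpla2 and Apob were added after their values were seen. Listed genes without a probe set of a single symbol, such as Acsl1, Gk and Plin1, are not reported here. Promoters were matched by symbol. A protein comparison of the lipins was not run. Alternatives covered scaling, pseudocount, expression filter, probe set rule and fold.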

Additional observations from a re-analysis of the deposited data

How the results depend on the processing

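Under 11 alternatives, the count of members higher by 1.5-fold stayed at 0 and the count lower stayed at 1 under 10 of them. It was 2 with the median over a gene's probe sets, which adds Lpin2 (-0.60). The median over the expressed members stayed between -0.31 and -0.22 under the 10 alternatives other than the 2-fold count. Lpin1 lay between -2.20 and -2.02 under the 7 alternatives run for single members. Dgat1 was the only member that changed sides of 0, at -0.05 after quantile normalization and -0.03 with a loess trend removed, and it was 0.92 when only plain _at probe sets were used, which takes its unexpressed probe set. No paired analysis was possible because there was 1 array per group. Precision is limited by the number of arrays, and Mogat1 and Cidec lay near the array medians, where probe sets of a gene spread most (SD 0.44 over the 1298 dimmest genes).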
